A study of Mus musculus with 2 samples.

Results

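Mir193b, Mir365-1, Mir193a and Mir365-2 are 4 of the 2202 microRNA genes counted in the adrenal gland, and they form 2 loci that each hold a miR-193 gene and a miR-365 gene. They were taken by their GENCODE M21 symbols, matched through the Ensembl identifiers of the count files, and all 4 were found. The samples were small-RNA libraries from the adrenal glands of 2 male mice of the strain B6CASTF1/J, aged 36 days, with 1 library per animal. This strain is the first-generation hybrid of C57BL/6J and CAST/EiJ. No treatment or second condition was labelled, so both libraries form 1 group, and any difference between them is a difference between 2 libraries. The labels number the mice separately and give 1 donor record for both.

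MicroRNAs are short RNAs cut from a hairpin precursor. Either arm of the hairpin (5p or 3p) can be loaded into an Argonaute protein, and pairing of the seed, bases 2 to 8 of the loaded arm, with a messenger RNA lowers its output. The miR-193b and miR-365 pair is known for its enrichment in brown fat, the heat-producing fat tissue. It was described as promoting brown fat cells at the expense of muscle, although mice lacking the locus were later described as forming brown fat. The adrenal gland lies in fat that can include brown fat cells. The miR-193 family is also known outside fat, for instance as a brake on growth in tumour cells.

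The mature arms are shown first because they decide which of the 4 genes a read can be counted to. The sequences are from RefSeq (GRCm38.p6, the assembly also called mm10), where 4 of 4 genes matched, and all 4 hairpins were identical to the GENCODE M21 transcripts. Capitals mark the seed.

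miR-193b-3p: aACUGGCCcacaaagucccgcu

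miR-193a-3p: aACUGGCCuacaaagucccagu

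miR-193b-5p: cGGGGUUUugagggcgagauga

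miR-193a-5p: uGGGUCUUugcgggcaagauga

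miR-365-3p, the same from Mir365-1 and Mir365-2: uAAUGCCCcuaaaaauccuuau

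miR-365-1-5p: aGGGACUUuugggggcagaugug

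miR-365-2-5p: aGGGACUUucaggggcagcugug

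The 3p arms of miR-193a and miR-193b shared the seed ACUGGCC and differed at 3 of 22 bases outside it, U9C, A20G and G21C, with the base of miR-193a first and positions counted from 1 at the 5′ end. No other mature arm in the RefSeq table had that seed. The 5p arms of miR-193a and miR-193b differed at 5 of 22 bases (U1C, U5G, C6U, C11A and A16G), so their seeds differed. The 3p arm of miR-365 was the same in all 22 bases at both loci. The 5p arms of miR-365-1 and miR-365-2 shared the seed GGGACUU and differed at 3 of 23 bases, U10C, G11A and A19C, with the base of miR-365-1 first. Among the 4 hairpins, identity over a whole mature arm was therefore limited to miR-365-3p.

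The longest run shared by the Mir365-1 and Mir365-2 hairpins was 27 bases and held the whole 3p arm, shown here in capitals to make plain how far the identity extends beyond it.

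Mir365-1 and Mir365-2: ucaUAAUGCCCCUAAAAAUCCUUAUug

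The hairpins of Mir193b and Mir193a shared at most 10 bases in a row, acaaaguccc, within the 3p arm. Of the 66 stretches of 22 bases in the Mir365-1 hairpin, 6 were identical in Mir365-2, and 15 were identical or 1 mismatch away. The Mir365-2 hairpin had 91 such stretches, of which 6 were identical in Mir365-1 and 15 were identical or 1 mismatch away. None of the 58 stretches of Mir193b and none of the 45 of Mir193a came within 1 mismatch of another annotated microRNA gene, on either strand. With stretches of 20 bases, 1 of 60 in Mir193b and 1 of 47 in Mir193a were 1 mismatch away, and none were identical. A read that maps to several places was not assigned to a gene in these files, and such reads made up 29.8% of all reads in replicate 1 and 21.5% in replicate 2. The files do not say which microRNAs those reads came from, so the amount of miR-365-3p left uncounted was not tested, and the counts of Mir365-1 and Mir365-2 are uncertain as levels of mature miR-365.

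**Figure D1:**
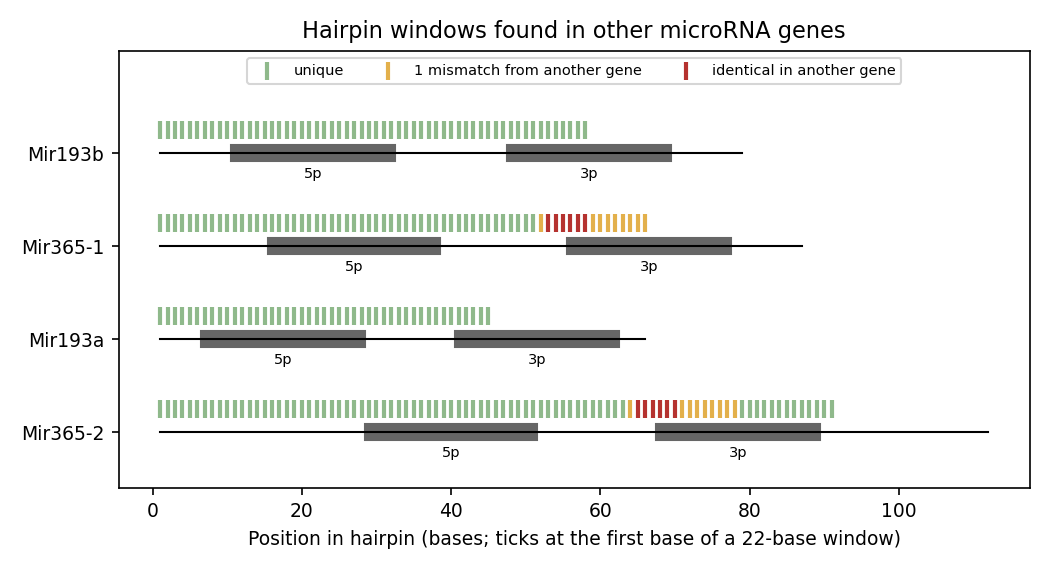
Position along each hairpin in bases, with grey boxes for the 5p and 3p arms. Each tick is the first base of a stretch of 22 bases, coloured by whether it is unique among annotated microRNA genes, 1 mismatch from another gene or identical in one. The identical ticks number 6 in Mir365-1 and 6 in Mir365-2 and lie at the 3p arm, while all ticks of Mir193b and Mir193a are unique.

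Both loci lie on the plus strand in mm10, with the miR-193 gene first. Mir193b (ENSMUSG00000076972.2) lies on chromosome 16 from 13449523 to 13449601, and Mir365-1 (ENSMUSG00000065449.1) on chromosome 16 from 13453840 to 13453926, with 4238 bases between them. Both are within an intron of Gm15738, an antisense gene on the minus strand, and the nearest gene upstream is the protein-coding Mrtfb. Mir193a (ENSMUSG00000065395.1) lies on chromosome 11 from 79711969 to 79712034, and Mir365-2 (ENSMUSG00000065489.1) on chromosome 11 from 79726400 to 79726511, with 14365 bases between them. This locus lies between genes, with the long non-coding RNA genes Gm11205 before it and 9130204K15Rik after it. The counts were almost all from the sense strand: Mir193a had 2 antisense counts in replicate 2, and the other 3 genes had none in either library.

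The libraries held 12289288 and 10323816 reads in replicates 1 and 2, of which 4494857 and 2078824 were sense counts of microRNA genes. Levels are given in CPM, these gene counts scaled to a total of 1000000 per library, with exact Clopper-Pearson 95% intervals for single libraries that cover counting error only. For a gene with no count, the upper limit of 3 counts stood at 0.667 CPM (replicate 1) or 1.44 CPM (replicate 2). All 4 genes were detected in both libraries, and 3 of them had at least 10 counts in both, Mir365-1 being the exception with 9 counts in replicate 1.

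Mir193b, whose 3p arm carries the family seed, was the highest of the 4 genes in both libraries. It had 1149 counts in replicate 1, or 256 CPM (241 to 271), and 6302 counts in replicate 2, or 3032 CPM (2957 to 3107). Replicate 2 was 11.9-fold higher in CPM, and the gene moved from rank 132 to rank 45 among all microRNA genes. Its mean was 1644 ± 1963 CPM (SD, n = 2). The SD was larger than the mean, and that mean rests on replicate 2: with replicate 1 alone the level would be 256 CPM.

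Mir193a, the partner with the same seed on chromosome 11, was nearly level between the libraries. It had 815 counts in replicate 1, or 181 CPM (169 to 194), and 504 counts in replicate 2, or 242 CPM (222 to 265). The ratio was 1.34-fold, and the ranks were 160 and 156. Its mean was 212 ± 43.2 CPM (SD, n = 2). The 2 miR-193 genes together had 437 CPM in replicate 1 and 3274 CPM in replicate 2.

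The miR-365 genes stood far lower. Mir365-2, on chromosome 11, had 41 counts in replicate 1, or 9.12 CPM (6.55 to 12.4), and 43 counts in replicate 2, or 20.7 CPM (14.97 to 27.9). Mir365-1, on chromosome 16, had 9 counts in replicate 1, or 2.00 CPM (0.916 to 3.801), and 28 counts in replicate 2, or 13.5 CPM (8.95 to 19.5). Both were higher in replicate 2, by 2.27-fold for Mir365-2 and 6.73-fold for Mir365-1. Their means were 14.9 ± 8.18 CPM and 7.74 ± 8.11 CPM (SD, n = 2), and with 1 library alone the level would be 9.12 or 20.7 CPM for Mir365-2 and 2.00 or 13.5 CPM for Mir365-1. Together they had 11.1 and 34.2 CPM in replicates 1 and 2.

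The order Mir193b, Mir193a, Mir365-2, Mir365-1 was the same in both libraries. The means of Mir193b and Mir193a differed by less than the SD of Mir193b, and those of Mir365-2 and Mir365-1 by less than the SD of either. Such an SD is the spread of 1 gene over the libraries. It does not measure the spread of a difference between genes counted in the same library. In replicate 2 the counting intervals of Mir365-2 and Mir365-1 overlapped. With 2 animals the order is a description. The gap from Mir193a to Mir365-2 was larger than the SD of both. A fall or rise in a gland can come from fewer or more cells of a type or from a changed amount of RNA per cell, and these bulk libraries cannot tell them apart.

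**Figure D2:**
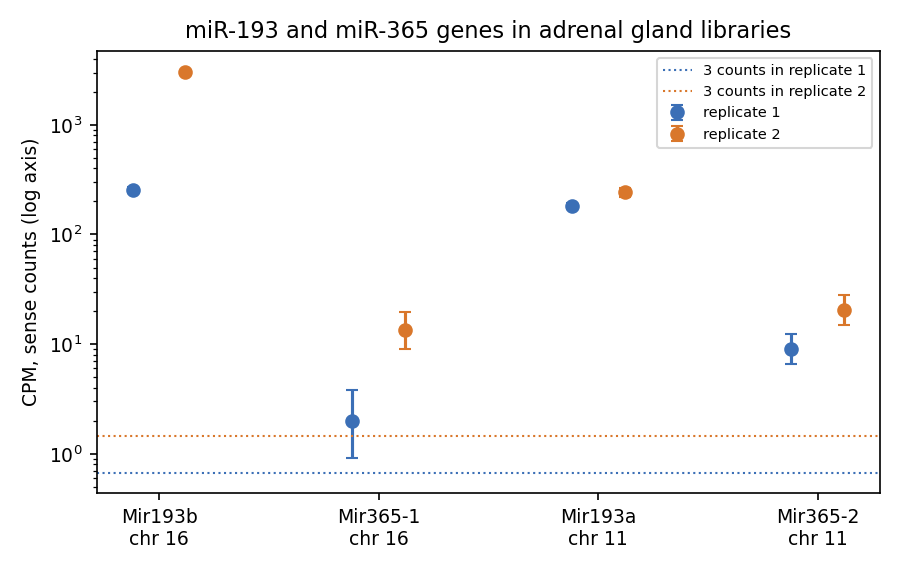
Level of each gene in CPM on a log axis, 1 point per library, with exact 95% counting intervals. Dotted lines mark 3 counts in each library. Mir193b separates the libraries most (256 and 3032 CPM), whereas Mir193a stands at 181 and 242 CPM.

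Within each locus the miR-193 gene held nearly all counts. In the chromosome 16 locus, Mir193b made up 99.2% of the counts of the pair in replicate 1 (98.5 to 99.6 by the exact method above). In replicate 2 its share was 99.6% (99.4 to 99.7). The ratio of Mir193b to Mir365-1 counts was 128 and 225. In the chromosome 11 locus, Mir193a made up 95.2% in replicate 1 (93.6 to 96.5) and 92.1% in replicate 2 (89.6 to 94.3), a ratio of 19.9 and 11.7 to Mir365-2. Genes of one locus thus differed by over 10-fold in every case, with the miR-365 side of each ratio subject to the uncounted 3p reads described above.

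Between the loci, the balance of counts shifted toward chromosome 16 in replicate 2. This split uses 2 counts of the same library and so does not depend on scaling. It was chosen after the values were seen. Mir193b made up 58.5% of the miR-193 counts in replicate 1 (exact interval 56.3 to 60.7, 1964 counts) and 92.6% in replicate 2 (91.9 to 93.2, 6806 counts). Mir365-1 made up 18% of the miR-365 counts in replicate 1 (8.58 to 31.4, 50 counts) and 39.4% in replicate 2 (28.0 to 51.7, 71 counts). Each of the 4 shares, between loci and within them, was compared between the libraries with a two-sided Fisher's exact test, added after seeing the data and covering counting error only. The Benjamini-Hochberg adjusted p over these 4 tests was 4.23e-255 for the miR-193 split and 0.028 for the miR-365 split. Within the loci it was 0.17 for Mir193b and Mir365-1 and 0.028 for Mir193a and Mir365-2. With 1 library from each animal, none of these differences can be set against a spread within an animal.

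**Figure D3:**
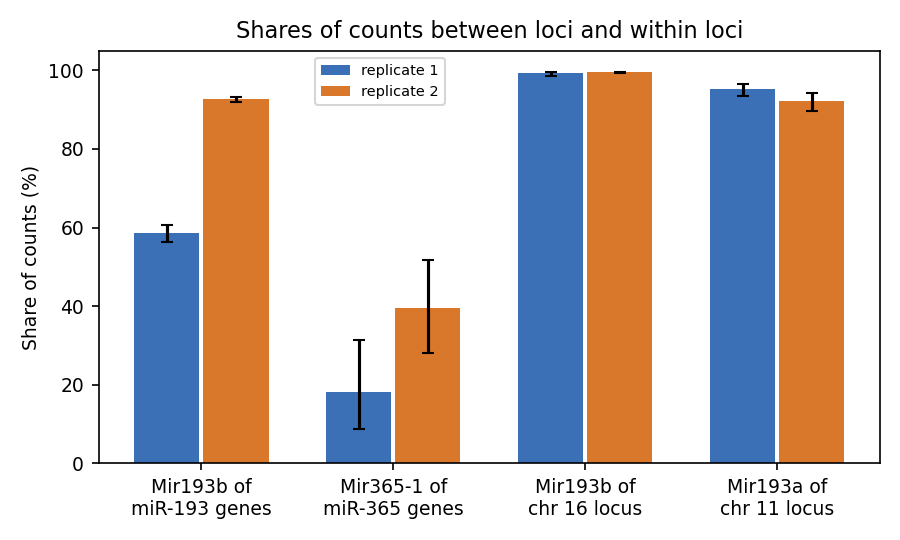
Share of counts in percent per library, with exact 95% counting intervals. The left pair of groups gives the chromosome 16 gene's share of each family, and the right pair gives the miR-193 gene's share of each locus. The Mir193b share of the miR-193 genes stands at 58.5% and 92.6%, while the shares within loci are above 90% in both libraries.

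To place the genes among all others, the counts of the 2 libraries were compared gene by gene after TMM scaling, with a two-sided exact binomial test and Benjamini-Hochberg adjustment over 333 genes with at least 10 counts in both. Only counting noise enters this test, which called 78.1% of those genes, 39.3% as higher in replicate 2. Among the 4 genes of the 2 loci, 3 were tested and all 3 were called higher in replicate 2. With most genes called, such a call says only that the libraries differed. The exact test of edgeR, given a common dispersion fitted to this pair of libraries, called 1.8% of the 333 genes (6 genes, with 17 at an unadjusted p under 0.05) and none of these 3. This dispersion counts the difference between the 2 libraries as noise, so few calls can come from the test. A gene it leaves uncalled is therefore not shown to be level.

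Mir193b had the largest ratio of the 4 genes, though the interval of Mir365-1, its partner at the locus, included that value. The log2 ratio of Mir193b, replicate 2 over replicate 1, was 3.38 (counting interval 3.29 to 3.47), against a median of 0.01 over all genes tested, and it stood at place 8 of 333. Its edgeR exact adjusted p was 0.15, and the unadjusted p was 0.0050. Mir365-2 had a log2 ratio of 1.00 (0.34 to 1.65). The adjusted p was 0.0026 in the exact binomial test and 0.99 in the exact test of edgeR. Mir193a had a log2 ratio of 0.23 (0.07 to 0.40). Its adjusted p was 0.0063 in the exact binomial test and 0.99 in that of edgeR. With a correction for hairpin GC content, added after seeing the data, the ratio of Mir193a was 0.04 and was no longer called. The ratio of Mir365-1 could be tested only with a lower minimum of 5 counts, where it was 2.56 (1.44 to 3.83), with an exact binomial adjusted p of 1.1e-06 over 386 genes.

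**Figure D4:**
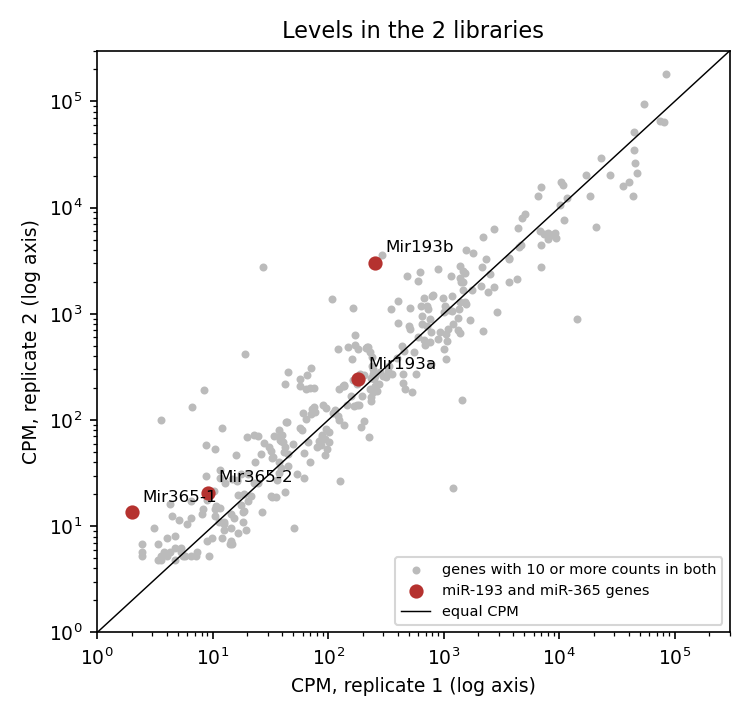
CPM of each gene in replicate 1 against replicate 2, both on log axes, with the line of equal CPM. Grey points are the 333 genes with 10 or more counts in both libraries, and red points are the 4 genes of the loci. Mir193b lies at the upper edge of the cloud, Mir193a close to the line, and both miR-365 genes above it.

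The 7 genes with larger ratios than Mir193b were chosen after their values were seen. They were the 5 miR-200 family genes, typical of epithelial cells, with log2 ratios from 4.14 to 6.47, then Mir31 (3.49), also known from epithelia, and Mir30b (3.44). Among further genes known from epithelia, Mir203 was lower in replicate 2, with 1551 and 1232 CPM (-0.52). Mir205 was higher (1.44), at 14 and 20 counts. Cell type markers also differed between the libraries. The epithelial list of 5 genes had a sum of 64.7 CPM in replicate 1, against 3576 CPM in replicate 2. The pancreas acinar list, Mir216a, Mir216b and Mir217, had 0 counts in replicate 1 and 677 counts in replicate 2, where all 3 of 3 genes were detected and Mir217 had 530 counts. The liver gene Mir122 had 1383 and 2842 CPM. Their part in the level of Mir193b was not tested.

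The marker lists of other cells did not share 1 direction. The erythroid list of 3 genes, led by Mir451a, had a sum of 15841 CPM in replicate 1, against 1091 CPM in replicate 2. The striated muscle list, led by Mir499, summed to 6.67 and 11.1 CPM, which is 30 and 23 counts. The neuronal list summed to 903 and 366 CPM, led by Mir137 with 775 and 339 CPM, followed by Mir153 with 127 and 26.5 CPM. In the muscle list 5 of 10 genes and in the neuronal list 5 of 8 genes had 0 counts in both libraries. All of these but Mir133b are numbered copies of miR-1a, miR-133a, miR-124a or miR-9, whose copies give the same mature microRNA. Reads that map to several places are not counted, so the zeros of these copies do not measure muscle or neuron microRNAs. Whether the same limit holds for Mir133b was not checked.

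In the remaining lists the sum was led by 1 gene. In the neuroendocrine, smooth muscle and leukocyte lists other members went the other way. Over all 333 genes the binomial test called 129 higher in replicate 1 and 131 higher in replicate 2, and lists this short describe single genes. The neuroendocrine list summed to 48802 and 54157 CPM through Mir375, while the binomial test called 3 of its 4 genes higher in replicate 1 (median log2 ratio -0.54). The smooth muscle list summed to 46611 and 30221 CPM through Mir143, called higher in replicate 1, while its other gene was called higher in replicate 2. The leukocyte list summed to 1740 and 1891 CPM, led by Mir150, while 3 of 4 genes were called higher in replicate 1 (median log2 ratio -0.54). The endothelial list, led by Mir126a, summed to 74842 and 64797 CPM, and its other gene, Mir126b, was not called. Of these lists the neuroendocrine one is the nearest to a check of the labelled gland, whose medulla is neuroendocrine.

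The brown fat link of the name was set against the other microRNAs that have been tied to brown fat. As a pair of markers, Mir378a, encoded within the gene of the coactivator Ppargc1b, and Mir455, tied to brown fat formation, were both higher in replicate 2. Both also belong to the wider list below. Of its 18 tested genes, 12 were called higher in replicate 2 and 5 higher in replicate 1. Mir378a had 53937 and 94373 CPM in replicates 1 and 2, a log2 ratio of 0.62 (0.61 to 0.63). Mir455 had 1154 and 2284 CPM, a log2 ratio of 0.80 (0.74 to 0.86). Both ratios were far below the 3.38 of Mir193b, and both genes are also expressed in other tissues. The binomial test called both genes, as it did 78.1% of all 333 genes, and the edgeR exact adjusted p was 0.99 for each. The part of brown fat cells in the Mir193b level was not tested.

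The wider list of 19 microRNA genes described as promoting brown or beige fat, which includes Mir193b, Mir365-1 and Mir365-2, had 18 members tested. The binomial test called 12 of them higher in replicate 2 and 5 higher in replicate 1, and 1 was not called, against 131 and 129 of all 333 genes. Their median log2 ratio was 0.67, against 0.01 over all genes tested. Without the miR-193 and miR-365 genes, the same test called 10 of 16 upward in replicate 2 and 5 downward, and the median was 0.58. The upward ones include the numbered copies Mir26a-1 and Mir26a-2, Mir30c-1 and Mir30c-2, and Mir129-1 and Mir129-2. Mir196a-2, called downward, is also such a copy. Copies of one microRNA are not independent members, and their reads that map to several places were not counted. Mir30b and Mir193b had the largest ratios. The highest member after Mir378a was Mir26b, in an intron of Ctdsp1, which went the other way with 43834 and 12870 CPM (log2 ratio -1.95). Mir328 had 1782 and 3716 CPM, and Mir182, known from sensory and neuroendocrine cells, was the next lowest with a log2 ratio of -0.68. The edgeR exact test called none of the 18, against 6 of all 333 genes. In that test 3 of the 18 had an unadjusted p under 0.05, against 17 of all 333. These 3 were Mir30b, Mir129-1 and Mir193b itself.

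The list of 12 genes described as opposing brown fat had 9 members tested. The binomial test called 3 of them higher in replicate 2 and 4 higher in replicate 1, against 131 and 129 of all 333 genes. It called 2 neither way. Mir125b-1 and Mir125b-2 of this list are also numbered copies. The median log2 ratio of the 9 members was -0.10, against 0.01 over all genes tested. Mir27b, the highest of them, had 4396 and 6407 CPM (0.36), Mir93 of the miR-106b cluster had 3689 and 3259 CPM (-0.36) and Mir27a had 1392 and 2170 CPM (0.46). The largest ratio was that of Mir34a, a p53 target, at 0.85, and the lowest were those of Mir106b at -0.77 and Mir155, known from activated leukocytes, at -0.56. Mir133a-1, Mir133a-2 and Mir133b, the muscle genes known to hold back brown fat formation, had 0 counts in both libraries. Mir133a-1 and Mir133a-2 are copies as above, so their zeros measure nothing. The edgeR exact test called none of the 9, and none had an unadjusted p under 0.05, against 6 and 17 of all 333 genes.

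**Figure D5:**
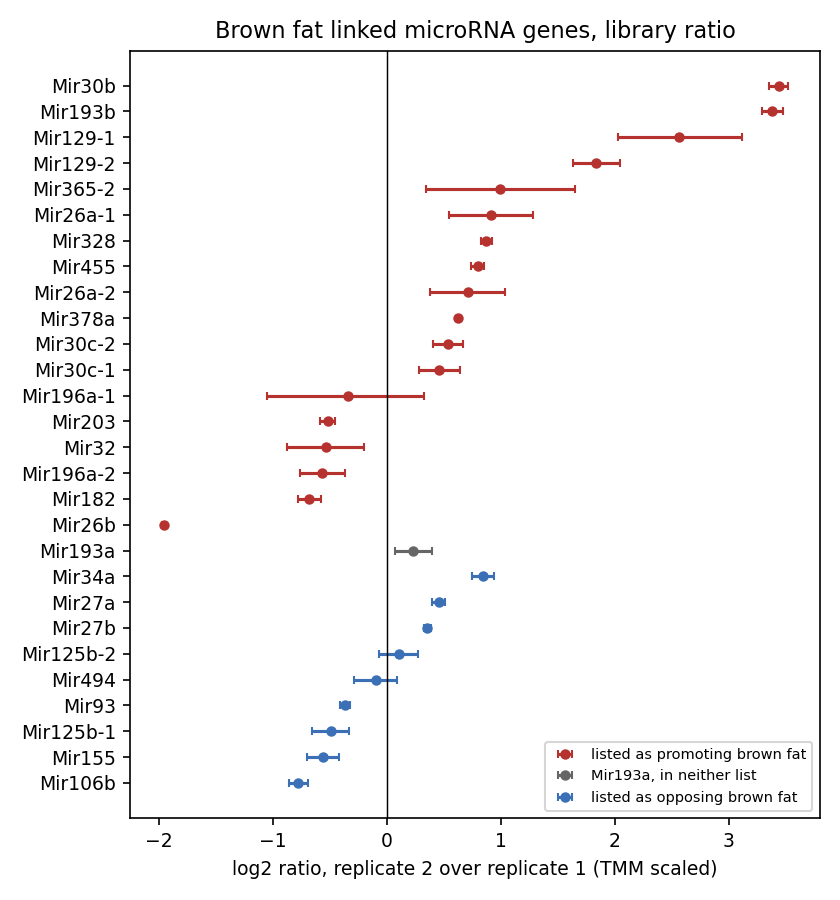
Log2 ratio of replicate 2 over replicate 1 after TMM scaling for the tested genes of both lists and for Mir193a, with 95% counting intervals. Mir30b (3.44) and Mir193b (3.38) stand apart at the right, Mir193a lies at 0.23, and Mir26b is the lowest at -1.95.

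The genes closest in level to each tested gene were found by the distance between log2 CPM values over the 2 libraries. Mir30b was the nearest to Mir193b, with 290 and 3571 CPM and a distance of 0.30. The next were Mir107, Mir132, Mir434 and Mir34c, at distances from 1.01 to 1.37, so that 1 gene lay near Mir193b and the others did not. For Mir193a the 5 nearest, Mir210, Mir381, Mir329, Mir125b-2 and Mir296, all lay within 0.23, and Mir210, induced by low oxygen, had 186 and 254 CPM. For Mir365-2 the nearest were Mir669l, Mir3067, Mir3076, Mir103-2 and Mir491, at distances from 0.18 to 0.54. With 2 libraries such likeness is a description of 2 values.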

How the data were processed

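The authors deposited raw read counts per annotated microRNA gene, without strand and for each strand, for 2 libraries. Per the readme deposited by the authors, counting used mm10 and GENCODE M21. Alignment and counting software was not given in the sources used here. Sense counts were scaled to 1000000 per library over the 2202 genes. Reads unmapped, mapping to several places or outside genes (26.4%, 29.8% and 7.16% in replicate 1, 51.9%, 21.5% and 6.46% in replicate 2) were left out. TMM factors (edgeR 4.0.16, R 4.3.3) used the genes that reached 10 counts in each library. The exact binomial test (SciPy 1.17.1, Python 3.11.15) called genes at an adjusted p of 0.05. It was checked on counts simulated with counting noise only and known library sizes. That check does not cover variation between animals or the TMM scaling. The alternatives were DESeq2 1.42.0 scaling, library size, other count minimums, the strand-blind column, the edgeR exact test with a common dispersion (biological coefficient of variation 52.2%), and a GC correction added later. Stretches of 20, 22 and 24 bases were compared over the annotated microRNA genes, since no genome was used here. The members and lists were chosen with earlier results of these data known. The named genes were the 4 members, the 3 highest genes and the 2 largest ratios each way of each brown fat list, the highest gene of each marker list and the 5 nearest genes in level. Further genes were named after their values were seen.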

Additional observations from a re-analysis of the deposited data

How the results depend on the processing

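The called direction of Mir193b and Mir365-2, higher in replicate 2, held under every scaling, count minimum that tested them, column and GC setting run, with log2 ratios from 3.23 to 3.57 for Mir193b and from 0.96 to 1.18 for Mir365-2, but not as a call in the edgeR exact test. That test called 6 genes in place of 260, with a dispersion that counts the difference between the libraries as noise. Mir193a lost its call in the edgeR exact test (adjusted p = 0.99) and with the GC correction (0.04, adjusted p = 0.63), and its ratio ranged from 0.04 to 0.42. TMM scaling lowered every log2 ratio by 0.19 relative to library size, and the GC correction moved the median from 0.01 to -0.11. In the strand-blind column, whose total is smaller, the mean of Mir193a was 261 CPM. With 1 library alone, the level ran from 256 to 3032 CPM for Mir193b, from 2.00 to 13.5 CPM for Mir365-1, from 181 to 242 CPM for Mir193a and from 9.12 to 20.7 CPM for Mir365-2. The comparison between libraries has no value with a library left out. Depth limits Mir365-1, at 9 counts in replicate 1.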

Other observations

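Neighbouring microRNA genes of one strand that lie within 15 kb and have counts in both libraries formed 111 pairs, and the genes of a pair differed by a median of 6.72-fold. The Mir193b and Mir365-1 pair, at 170-fold on average over the libraries, had the 7th largest difference, and the Mir193a and Mir365-2 pair, at 15.3-fold, the 37th. The larger differences included pairs chosen after their values were seen, such as Mir544 and Mir382 at 2830-fold and Mir29a and Mir29b-1 at 327-fold. Pairs that share a gene are not independent. Mir365-1 and Mir365-2 have a whole mature arm in common, and reads that map to several places were not counted. The differences and ranks of the Mir193b and Mir365-1 pair and the Mir193a and Mir365-2 pair are therefore uncertain. The part of uncounted reads in these differences, or in those of the other pairs, was not tested.

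Like the miR-365 genes, 57 genes of the RefSeq table had some but not all mature arms identical at another locus of that table. Of these, 37 reached 10 counts in each library, and the median over all 57 was 19.3 CPM. Of the 924 genes with no arm identical elsewhere, 259 did so, with a median of 0.454 CPM over all 924. The 37 genes with every arm identical elsewhere included 5 that did so, and the median over all 37 was 0 CPM. At the upper end the order of the first 2 classes was reversed. The top decile of mean CPM began at 322 for the 57 genes, at 719 for the 924 and at 11.1 for the 37. The part of uncounted reads in these levels was not tested.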
